A study of Mus musculus with 32 samples.

Results

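The 10 disease-associated phagocyte genes *Trem2*, *Tyrobp*, *Clec7a*, *Apoe*, *Lpl*, *Spp1*, *Gpnmb*, *Itgax*, *Cst7* and *Cd9* were followed by gene symbol through bulk RNA-seq of the mouse brain 1 day after ischemic stroke. They were 10 of the 33280 genes counted in each of 2 tables, 1 for sorted macrophages and 1 for brain tissue, and all 10 passed the filter on low counts in both. The members were chosen by name and function, with earlier results of these data known. Wild-type C57BL/6JCrl mice of both sexes received BLZ945, an inhibitor of the CSF1 receptor that depletes brain macrophages, at 200 mg per kg by gavage on each of 7 days, or the vehicle alone (CTL). After 8 weeks, when macrophages had repopulated the brain, all 8 mice (4 CTL, named A2, A3, A4 and B1, and 4 BLZ945, named C2, C3, C4 and D1) underwent a thromboembolic stroke by injection of thrombin into the middle cerebral artery. Each mouse gave tissue and subdural CNS-associated macrophages (sdCAMs) from the ipsilateral hemisphere, on the side of the stroke, and from the contralateral hemisphere. No unoperated mice were among the libraries, so the contralateral hemisphere of the same animals served as the comparison. The sort took CD45+CD11b+CD206+ cells that lacked Ly6C, Ly6G and CD11c from brain without choroid plexus. Of the members, *Itgax* encodes CD11c and was therefore gated against at the level of protein.

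TREM2 is a lipid-sensing receptor of microglia and macrophages that signals through its adaptor TYROBP (DAP12). Around amyloid plaques, demyelinated lesions and dying cells, brain phagocytes that engage this receptor lower their homeostatic genes and raise a shared set of genes for lipid uptake, lysosomal digestion and adhesion, to which all members belong. Within the set, Dectin-1 (*Clec7a*) is a receptor that signals through an activation motif of its own. Apolipoprotein E is a lipid carrier and a TREM2 ligand, and lipoprotein lipase (*Lpl*) releases fatty acids from lipoproteins. *Spp1* encodes osteopontin, a secreted ligand of integrins and CD44, and *Gpnmb* encodes a glycoprotein of lysosomal and plasma membranes. *Itgax* encodes an integrin chain that pairs with that of *Itgb2*, *Cst7* encodes cystatin F, an inhibitor of lysosomal cathepsins, and *Cd9* encodes a tetraspanin.

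Total counts on genes were 7397393 to 11081409 in the 14 sdCAM libraries used and 9288717 to 12781505 in the 16 tissue libraries. The ipsilateral sdCAM libraries of A3 and C2, whose labels mark the RNA as degraded, held 54055 and 55155 counts and were left out. For the tissue of A3, the name of the column in the count table and the sample label give opposite hemispheres. The label was followed, and the count of tissue calls is also given with these libraries exchanged and without A3. The sdCAM libraries carried the markers of their label, with 10 of 10 sdCAM markers (*Mrc1*, which encodes CD206, among them) detected in every library at summed levels of 1658 to 10470 CPM (counts on a gene scaled to the library's total after TMM normalization). In CTL mice the summed microglia markers lay above the summed sdCAM markers. They were 9089 to 12800 against 1995 to 6603 CPM in contralateral and 8845 to 18830 against 4929 to 8720 in ipsilateral libraries. In BLZ945 mice the ranges overlapped, with 4012 to 8358 against 1658 to 4750 and 6615 to 13880 against 5699 to 10470 CPM. Sums of different lists do not give shares of cells. The sdCAM libraries also held markers of further cell types, unequally between the hemispheres. Summed endothelial markers were 837.6 to 2731 CPM in contralateral and 40.42 to 190.9 in ipsilateral sdCAM libraries, oligodendrocyte markers 667.6 to 6096 and 225.1 to 816.6, and choroid plexus markers 24.55 to 37560 and 0.5016 to 1512. Microglia markers were 4012 to 12800 CPM in contralateral and 6615 to 18830 in ipsilateral sdCAM libraries, and sdCAM markers 1658 to 6603 and 4929 to 10470. The plot of marker levels by group shows these differences, whose part in the sdCAM results was not tested except by the rescaling to sdCAM and microglia markers given below. In bulk libraries, fewer cells of a type and less RNA per cell cannot be told apart.

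**Figure D1:**
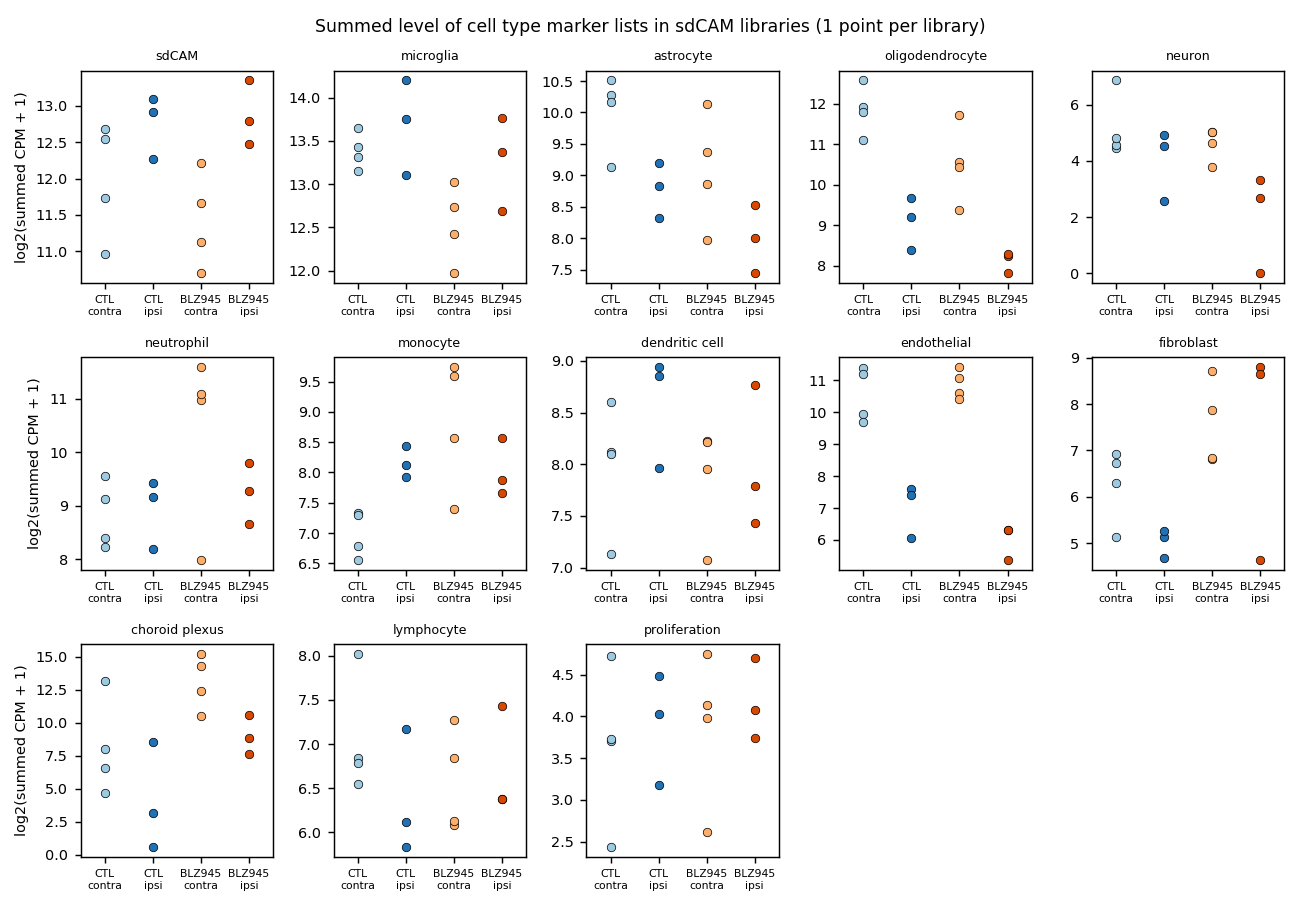
Summed level of 13 cell type marker lists in the 14 sdCAM libraries, as log2(summed CPM + 1) on the vertical axis, with 1 point per library, by treatment and hemisphere. Endothelial markers of the ipsilateral libraries (40.42 to 190.9 CPM) lie below those of all contralateral libraries (837.6 to 2731 CPM).

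The members were first compared between sdCAMs and tissue of the contralateral hemisphere, to see which of them the sorted cells carried at higher levels than the whole tissue. In a joint fit of 16 contralateral libraries, 9 of 10 members were called in CTL and 9 of 10 in BLZ945 mice, all except *Gpnmb* and all of them higher in sdCAMs. Of all genes tested, 59.9% were called in one direction or the other in CTL mice, and 60.1% in the BLZ945 group. The median log2 difference of the members was 5.55 in CTL mice, against -0.15 over all genes tested. *Clec7a* differed most, with a log2 difference of 7.93 in the CTL group (SE 0.682, adjusted p = 6.69e-08, edgeR's quasi-likelihood test with Benjamini-Hochberg adjustment over all genes). The receptor *Trem2* was 68.9-fold and its adaptor *Tyrobp* 81.1-fold higher in sdCAMs than in tissue of CTL mice (adjusted p = 1.43e-11 and 3.01e-12). The lipid genes stood closer, with *Apoe*, which astrocytes also express, 8.01-fold and *Lpl* 4.45-fold higher (adjusted p = 1.05e-07 and 0.00484). *Gpnmb* was near its tissue level in sdCAMs of CTL mice (log2 difference 0.34, 95% confidence interval -1.35 to 2.03, adjusted p = 0.752).

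Levels of different members were compared per kilobase of exons, as the median over all libraries of an assay. The length was the union of all exons annotated for a gene in GENCODE M21, with 4946 bases for *Trem2*, 10478 for *Lpl* and 2044 for *Cd9*. The order and the overlaps hold for these lengths only, and lengths of single transcripts were not tried. In sdCAMs *Apoe* stood first with 5921 CPM per kilobase, above the highest library of *Tyrobp*, the next with 1894. *Spp1* (1119), *Cd9* (586.4) and *Trem2* (184.1) followed, and on these lengths the libraries of *Cd9* and *Trem2* did not overlap. Among *Trem2*, *Clec7a* (74.94), *Cst7* (32.9), *Lpl* (23.1), *Itgax* (4.803) and *Gpnmb* (0.69), neighbours in this order overlapped between libraries. In tissue the order began with *Apoe* (624.2), *Tyrobp* (23.85), *Cd9* (20.61) and *Spp1* (9.135) and ended with *Clec7a* (0.447) and *Itgax* (0.170), and only *Apoe* against *Tyrobp* and *Lpl* against *Gpnmb* did not overlap as neighbours.

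In tissue, 6 of 10 members were higher in the ipsilateral than in the contralateral hemisphere over both treatments, namely *Tyrobp*, *Spp1*, *Itgax*, *Clec7a*, *Cst7* and *Cd9*, and none was lower. Of the 18968 genes tested, 3.05% were called in this comparison, and 2.53% as higher. Within treatments, 2 of 10 members were called in CTL mice (0.490% of all genes tested) and 5 of 10 in BLZ945 mice (1.36%), all higher on the stroke side. The median log2 fold change of the members over both treatments was 0.69, against -0.01 over all genes tested. The 6 calls over both treatments were the same without A3. Within treatments, 0 members were called in CTL (edgeR, 7 of 10 at an unadjusted p under 0.05) and *Itgax* alone in BLZ945 mice once A3 was left out, where *Tyrobp* had an adjusted p of 0.0527, *Spp1* and *Cst7* of 0.0546 and *Clec7a* of 0.0664. With the libraries of A3 exchanged, 0 of 10 were called over both treatments (edgeR, 8 of 10 at an unadjusted p under 0.05), and the calls over all genes went from 578 to 1. With the labels, *Ccl4* was at most 0.0936 CPM in all 8 contralateral and at least 1.366 in all 8 ipsilateral libraries, A3 among them. *Msr1* was 0 to 0.516 and 3.714 to 7.292 CPM. Exchanging A3 would end both separations, in genes picked from this comparison. In a fit with the mouse as a block, 9 of 10 members were called, 8 higher and *Apoe* lower, the exception being *Trem2*, and 7.09% of all genes were called. Within treatments the block added *Spp1*, *Cst7* and *Cd9* in CTL mice (*Cd9* with adjusted p = 0.00289) and *Lpl* and *Cd9* in BLZ945 mice (adjusted p = 0.00697 and 0.00193), and removed *Itgax* in CTL mice. With exchanged libraries and the block, *Spp1* and *Clec7a* were called (log2 fold changes 1.49 and 1.70, adjusted p = 0.0232 and 0.028), beside 1.33% of all genes.

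Of the receptors, *Trem2* itself did not pass the test in tissue. Its levels ranged from 11.13 to 19.29 CPM in the 8 contralateral libraries, with a median of 13.26, and from 10.83 to 17.19 in the 8 ipsilateral libraries, with a median of 15.42. The hemispheres overlapped over most of this range, and the log2 fold change was 0.08 (95% confidence interval -0.16 to 0.31, adjusted p = 0.867). *Tyrobp*, in contrast, separated the hemispheres in both treatments. In CTL mice A2, A3, A4 and B1 it was 13.32, 13.6, 12.17 and 12.58 CPM in contralateral and 18.58, 19.98, 16.09 and 18.46 in ipsilateral tissue. In BLZ945 mice C2, C3, C4 and D1 it was 14.36, 15.57, 15.72 and 14.42 CPM in contralateral and 23.33, 20.85, 17.87 and 19.78 in ipsilateral tissue. Every ipsilateral library lay above every contralateral library, and *Tyrobp* was 1.39-fold higher over both treatments (log2 fold change 0.47, SE 0.0726, adjusted p = 0.000842). It was also called in each treatment on its own (adjusted p = 0.0377 in CTL and 0.038 in BLZ945 mice). Each of these calls was lost in 6 of 8 fits that left out 1 mouse (without A2, A3, A4, B1, C3 or D1 in CTL and without A2, A3, B1, C2, C3 or D1 in BLZ945 mice, adjusted p up to 0.359 and 0.352), without the filter on low counts (0.0647 and 0.0616) and with A3 exchanged (1 and 0.262). Of the other calls in BLZ945 tissue, those of *Spp1*, *Clec7a* and *Cst7* were also lost in 6 of 8 such fits each (adjusted p up to 0.16, 0.147 and 0.276). That of *Itgax* was lost in 3 of 8, without C2, C4 or D1 (up to 0.144). Both *Tyrobp* calls held with the mouse as a block (adjusted p = 0.027 in CTL and 0.0284 in BLZ945 mice) and with DESeq2 (0.00404 and 0.00836). The other calls in BLZ945 tissue held in both as well.

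*Clec7a*, the Dectin-1 gene, was low in tissue but higher on the stroke side of all 8 mice. In CTL mice A2, A3, A4 and B1 it was 0.2378, 0.3399, 0.7221 and 0.5549 CPM in contralateral and 0.6247, 0.9432, 1.415 and 3.048 in ipsilateral tissue. In BLZ945 mice C2, C3, C4 and D1 it was 1.607, 0.4181, 0.2791 and 1.498 CPM in contralateral and 6.139, 4.512, 1.997 and 7.092 in ipsilateral tissue. The groups overlapped in CTL mice through A2 and did not overlap in BLZ945 mice. These levels rest on 3 to 16 counts per contralateral and 8 to 71 per ipsilateral library. *Clec7a* rose 4.11-fold over both treatments (log2 fold change 2.04, SE 0.418, adjusted p = 0.00988) and 5.17-fold in BLZ945 mice (adjusted p = 0.0421). Without B1 the adjusted p over both treatments was 0.0538.

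The lipid genes did not pass the test in tissue over both treatments. *Apoe* ranged from 1094 to 1580 CPM in contralateral and from 834 to 1594 in ipsilateral tissue, and it was lower on the stroke side in 6 of 8 mice. Its log2 fold change was -0.21 (95% confidence interval -0.41 to 0.00, adjusted p = 0.407), and it was called lower only with the mouse as a block (log2 fold change -0.22, adjusted p = 0.045). *Lpl* ranged from 18.4 to 48.69 CPM in contralateral and from 26.92 to 48.83 in ipsilateral tissue. It was higher on the stroke side in 7 of 8 mice, the exception being A4 with 48.69 and 48.46 CPM. The log2 fold change of *Lpl* was 0.60 (SE 0.168, adjusted p = 0.0688), with adjusted p = 0.00165 with the mouse as a block and 0.00419 without A4.

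*Spp1*, the osteopontin gene, was higher on the stroke side of all 8 mice. In CTL mice A2, A3, A4 and B1 it was 9.354, 14.87, 6.086 and 12.21 CPM in contralateral and 38.34, 33.61, 13.44 and 33.2 in ipsilateral tissue. In BLZ945 mice C2, C3, C4 and D1 it was 15.21, 5.017, 6.885 and 15.17 CPM in contralateral and 104.4, 14.94, 31.32 and 53.54 in ipsilateral tissue. In each treatment, 1 ipsilateral library (A4 or C3) lay within the contralateral range, although both of these mice showed the rise from their own contralateral side. *Spp1* rose 3.67-fold over both treatments (log2 fold change 1.87, SE 0.354, adjusted p = 0.00532) and 4.83-fold in BLZ945 mice (adjusted p = 0.0301). In CTL mice alone its adjusted p was 0.473, and 2.77e-05 with the mouse as a block. *Gpnmb* was between 2.063 and 5.357 CPM in contralateral and between 4.03 and 9.826 in ipsilateral tissue and higher on the stroke side in 8 of 8 mice. Its log2 fold change of 0.79 lay at the threshold (SE 0.21, adjusted p = 0.051), and it was called with the block (adjusted p = 0.00974), with DESeq2 (0.00817) and without the filter on low counts (0.0474).

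*Itgax* and *Cst7* started, like *Clec7a*, from a very low contralateral level. In CTL mice A2, A3, A4 and B1, *Itgax* was 0.4756, 0.17, 0.4126 and 0.185 CPM in contralateral and 0.8589, 0.7717, 1.415 and 1.895 in ipsilateral tissue. In BLZ945 mice C2, C3, C4 and D1 it was 0.75, 1.15, 0.5583 and 0.5618 CPM in contralateral and 2.928, 2.807, 2.628 and 2.397 in ipsilateral tissue. The hemispheres did not overlap in either treatment, and the libraries held 2 to 11 counts on the contralateral and 9 to 31 on the ipsilateral side. *Itgax* rose 3.70-fold over both treatments (log2 fold change 1.89, SE 0.277, adjusted p = 0.000589), 3.86-fold in CTL (adjusted p = 0.0469) and 3.55-fold in BLZ945 mice (adjusted p = 0.0154). The call in CTL mice was lost with each mouse left out in turn (adjusted p 0.0532 to 0.657) and with the block (0.0568).

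*Cst7*, the cystatin F gene, was at 0 to 3 counts in the contralateral tissue of CTL mice, at or under the floor of 3 counts. In CTL mice A2, A3, A4 and B1 it was 0.07927, 0.2549, 0 and 0.09249 CPM there and 1.327, 0.9432, 0.619 and 0.7415 in ipsilateral tissue. In BLZ945 mice C2, C3, C4 and D1 it was 0.3214, 0.6271, 0 and 0.2809 CPM in contralateral (0 to 6 counts) and 2.172, 1.604, 1.366 and 1.798 in ipsilateral tissue. No ipsilateral library overlapped the contralateral libraries of its treatment. The fitted log2 fold change over both treatments had a 95% confidence interval of 1.83 to 3.57 (SE 0.445, adjusted p = 0.00164), and that in BLZ945 mice was 2.48 (adjusted p = 0.0413). The size of both depends on the very low counts of the contralateral side. In CTL mice the adjusted p was 0.0827, and 0.0497 with the block. *Cd9* was 28.88 to 43 CPM in contralateral and 39.35 to 73.67 in ipsilateral tissue and higher on the stroke side in 8 of 8 mice. It was 1.48-fold higher over both treatments (log2 fold change 0.56, SE 0.128, adjusted p = 0.0215), with adjusted p = 0.0723 without A2, 0.0898 without B1 and 0.054 without C2.

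Among the members, 3 of 10 did not overlap between the hemispheres in CTL tissue (*Tyrobp*, *Itgax* and *Cst7*), where 2.45% of all genes tested were higher without overlap. In BLZ945 tissue 4 of 10 did not overlap (*Tyrobp*, *Itgax*, *Clec7a* and *Cst7*), against 4.20% of all genes tested. Along with the members, summed sdCAM markers were 21.43 to 31.7 CPM in contralateral and 31.47 to 44.11 in ipsilateral tissue, and microglia markers 123.2 to 146.8 and 110.9 to 141.1. Summed neutrophil markers were 4.714 to 7.63 and 4.997 to 9.804 CPM, and dendritic cell markers 17.68 to 28.22 and 15.48 to 25.79. The part of these cells in the tissue results was not tested.

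**Figure D2:**
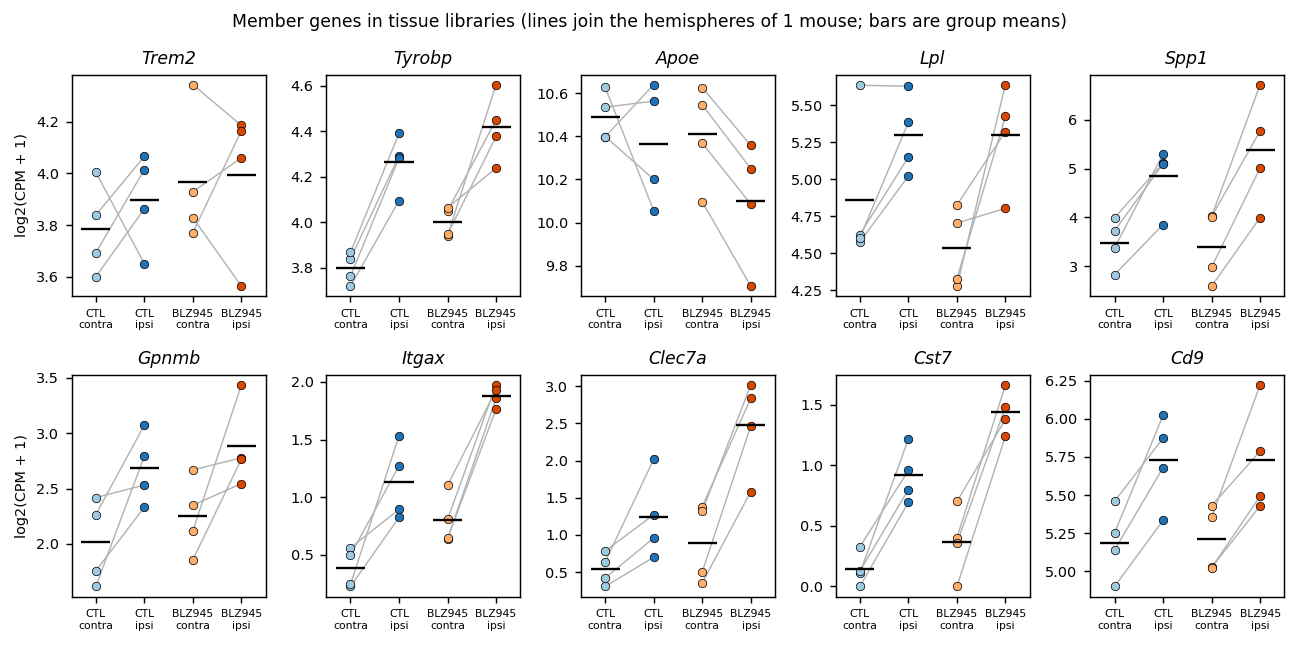
Levels of the 10 members in the 16 tissue libraries, as log2(CPM + 1) on the vertical axis, by treatment and hemisphere. Points are libraries, grey lines join the hemispheres of 1 mouse, and bars are group means. The lines of *Tyrobp*, *Spp1*, *Gpnmb*, *Itgax*, *Clec7a*, *Cst7* and *Cd9* rise in 8 of 8 mice.

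Promoter sequence is shown for *Itgax*, *Cst7* and *Spp1*, members with the largest ipsilateral folds in tissue that have a match to one of the motifs searched. RefSeq windows of 250 bases before to 50 bases after the start (GRCm38.p6) were held for 8 of 10 members, in 12 entries, and not for *Lpl* and *Tyrobp*. The first 260 bases of the window are printed, all on the + strand, at chr7:128129300-128129559 for *Itgax*, chr2:150570165-150570424 for *Cst7* and chr5:104434861-104435120 for the upstream of 2 starts of *Spp1*. Capitals mark matches to TGANTCA, the letters bound by AP-1 factors, or AGGAAGT, the core of a PU.1 site, on either strand.
Itgax: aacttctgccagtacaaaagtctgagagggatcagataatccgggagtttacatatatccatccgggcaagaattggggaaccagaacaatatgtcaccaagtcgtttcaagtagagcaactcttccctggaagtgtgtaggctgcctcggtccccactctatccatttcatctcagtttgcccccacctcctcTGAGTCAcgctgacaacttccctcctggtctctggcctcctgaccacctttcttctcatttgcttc
Cst7: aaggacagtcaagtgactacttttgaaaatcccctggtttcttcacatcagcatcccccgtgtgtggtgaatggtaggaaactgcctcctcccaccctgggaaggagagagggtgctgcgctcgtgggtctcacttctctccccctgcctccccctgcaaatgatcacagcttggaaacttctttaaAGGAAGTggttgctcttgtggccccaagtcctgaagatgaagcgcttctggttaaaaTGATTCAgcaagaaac
Spp1: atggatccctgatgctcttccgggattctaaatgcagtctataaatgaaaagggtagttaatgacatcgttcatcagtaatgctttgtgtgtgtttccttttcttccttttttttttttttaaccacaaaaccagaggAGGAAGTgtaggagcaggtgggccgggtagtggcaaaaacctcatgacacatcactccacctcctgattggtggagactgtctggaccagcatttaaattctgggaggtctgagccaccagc
TGANTCA began 56 bases before the start of *Itgax* and 6 bases before that of *Cst7*, and it was also present in the windows of *Gpnmb* and *Trem2*. Of 32851 promoter windows, 7.81% held TGANTCA, which 4 of the 12 windows of members held. AGGAAGT began 63 bases before the start of *Cst7* and 112 before that of *Spp1* and was held by 9.35% of all windows. CACGTG (7.15% of all windows) and TCATGTG (3.77%), the letters bound by MITF and TFE factors, matched in 0 of the 12 windows. *Trem2* has the TGANTCA match, at 9 bases before the start, and was not called between the hemispheres.

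In sdCAMs, *Lpl* and *Itgax* rose on the stroke side over both treatments, and 0 of 10 members were called within either treatment. Of the 18297 genes tested, 16.2% were called over both treatments, 4.98% as higher. Within treatments, 2.79% (CTL) and 5.61% (BLZ945) of all genes were called. At an unadjusted p under 0.05 there were 4 and 3 of 10 members, beside 18.3% and 22.3% of all genes. DESeq2 called *Lpl* and *Itgax* in CTL mice and 0 members in BLZ945 mice. Of all genes it called 1823 and 2518, against 510 and 1027 with edgeR. The median log2 fold change of the members over both treatments was 0.53, against -0.16 over all genes tested. On simulated counts of these libraries, edgeR over both treatments found 28% of the genes altered by 1 on the log2 scale, and 70% of those altered by 2. In simulated tissue it found 97% and 100%. Of 17760 simulated sdCAM genes 101 were called, against 16.2% of all genes in the real libraries. The adjustment over all genes depends on that share, so these percentages are not the detection rates in the real data. Members not called are not shown to be unchanged. The 200 altered genes were drawn from those above a minimum mean level, and no effect of the mouse was simulated. In tissue *Itgax*, *Clec7a*, *Cst7* and *Gpnmb* stood under that level, so the tissue shares do not cover them.

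*Lpl*, which encodes lipoprotein lipase, was higher in ipsilateral than in contralateral sdCAMs in 6 of 6 mice with both libraries. In contralateral sdCAMs it was 323.3, 69.28, 56.63 and 126.7 CPM in CTL mice A2, A3, A4 and B1 and 295.4, 59.32, 59.23 and 188.7 in BLZ945 mice C2, C3, C4 and D1. In ipsilateral sdCAMs it was 1107, 188.3 and 747.3 CPM in A2, A4 and B1 and 328.1, 473.3 and 624.3 in C3, C4 and D1. The groups did not overlap in BLZ945 mice (7.44% of all genes tested were higher without overlap), whereas in CTL mice the contralateral library of A2 lay above the ipsilateral library of A4. *Lpl* rose 3.86-fold over both treatments (log2 fold change 1.95, SE 0.48, adjusted p = 0.0129), and the call held with each mouse left out in turn (adjusted p 0.00813 to 0.0429). With the mouse as a block it was called over both treatments and in each (log2 fold changes 2.02 in CTL and 2.40 in BLZ945 mice, adjusted p = 0.00423 and 0.000984). With all 16 libraries, the degraded ones included, its adjusted p was 0.124.

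*Itgax* was low in sdCAMs, which were gated as negative for its product CD11c. In contralateral sdCAMs it was 13.26, 7.837, 11.65 and 11.91 CPM in A2, A3, A4 and B1 and 30.27, 22.43, 23.71 and 28.73 in C2, C3, C4 and D1. In ipsilateral sdCAMs it was 52.17, 15.95 and 57.94 CPM in A2, A4 and B1 and 55.57, 58.49 and 7.927 in C3, C4 and D1. All ipsilateral libraries of CTL mice lay above the contralateral ones (5.70% of all genes tested did so), and D1 alone went the other way. *Itgax* rose 2.41-fold over both treatments (log2 fold change 1.27, SE 0.382, adjusted p = 0.0346), with adjusted p = 0.245 with the block. Its adjusted p was 0.0796 without A2, 0.0651 without A3, 0.106 without B1, 0.129 without C3 and 0.137 without C4. Without D1 it was called in CTL mice as well (adjusted p = 0.021). Summed dendritic cell markers, which belong to another CD11c+ cell type, were 133.6 to 387.4 CPM in contralateral and 171.7 to 490.3 in ipsilateral sdCAM libraries. Summed monocyte markers were 93.08 to 159.6 CPM in contralateral and 242.4 to 343.6 in ipsilateral sdCAMs of CTL mice, without overlap, and 167.1 to 852.6 and 200.6 to 377.3 in those of BLZ945 mice. Their part in the result was not tested.

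*Cst7* was 14.53 to 43.31 CPM in contralateral and 23.06 to 71.36 in ipsilateral sdCAMs and higher in 5 of 6 mice, with a log2 fold change of 0.92 (SE 0.306, adjusted p = 0.0533). DESeq2 called it (adjusted p = 0.0379). The receptor genes were abundant on both sides. *Trem2* was 461.6 to 1091 CPM in contralateral and 633.1 to 1135 in ipsilateral sdCAMs, and higher on the stroke side in 3 of 6 mice (log2 fold change 0.20, 95% confidence interval -0.13 to 0.53). *Tyrobp* was 894.4 to 1345 and 1165 to 1681 CPM and higher in 5 of 6 mice (log2 fold change 0.34, adjusted p = 0.0928). *Clec7a* was 75.28 to 415 and 131.1 to 444.6 CPM and higher in 5 of 6 mice (log2 fold change 0.51, adjusted p = 0.357).

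*Apoe*, the most abundant member, was 6241 to 16730 CPM in contralateral and 11410 to 20050 in ipsilateral sdCAMs (log2 fold change 0.56, SE 0.214, adjusted p = 0.0868). *Cd9* was 770.6 to 2062 CPM in ipsilateral sdCAMs, a range that held all contralateral libraries (1022 to 1502 CPM; log2 fold change 0.14, 95% confidence interval -0.23 to 0.51). *Gpnmb*, in contrast to tissue, had lower values on the stroke side in 5 of 6 mice, with 0 to 6.589 CPM in ipsilateral and 0 to 24.95 in contralateral sdCAMs. It was at 0 counts in 3 of the 14 libraries, and its log2 fold change of -2.21 was not called (SE 1.11, adjusted p = 0.188).

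*Spp1* varied more between sdCAM libraries than any other member detected in all of them, over a 656-fold range. In contralateral sdCAMs it was 3705, 385.7, 15.28 and 1029 CPM in A2, A3, A4 and B1 and 4189, 126, 1511 and 4299 in C2, C3, C4 and D1. In ipsilateral sdCAMs it was 10020, 27.11 and 2505 CPM in A2, A4 and B1 and 1151, 2176 and 2271 in C3, C4 and D1. A4 was low and A2 high in both hemispheres, whereas C3 was 9.13-fold higher on its ipsilateral side and D1 lower on its own. *Spp1* was higher on the stroke side in 5 of 6 mice, but the log2 fold change of 0.63 had an SE of 0.977 (adjusted p = 0.737). Across the 14 libraries, taken within groups, log2 levels of *Spp1* and *Lpl* correlated with r = 0.867, given as a description without a test, since both hemispheres of a mouse enter it. *Spp1* and *Cd9* did so in the 16 tissue libraries with r = 0.910. Each was picked as the highest r among the member pairs of its assay. In the other assay, *Spp1* and *Lpl* had r = -0.615 (tissue) and *Spp1* and *Cd9* r = 0.0309 (sdCAMs).

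**Figure D3:**
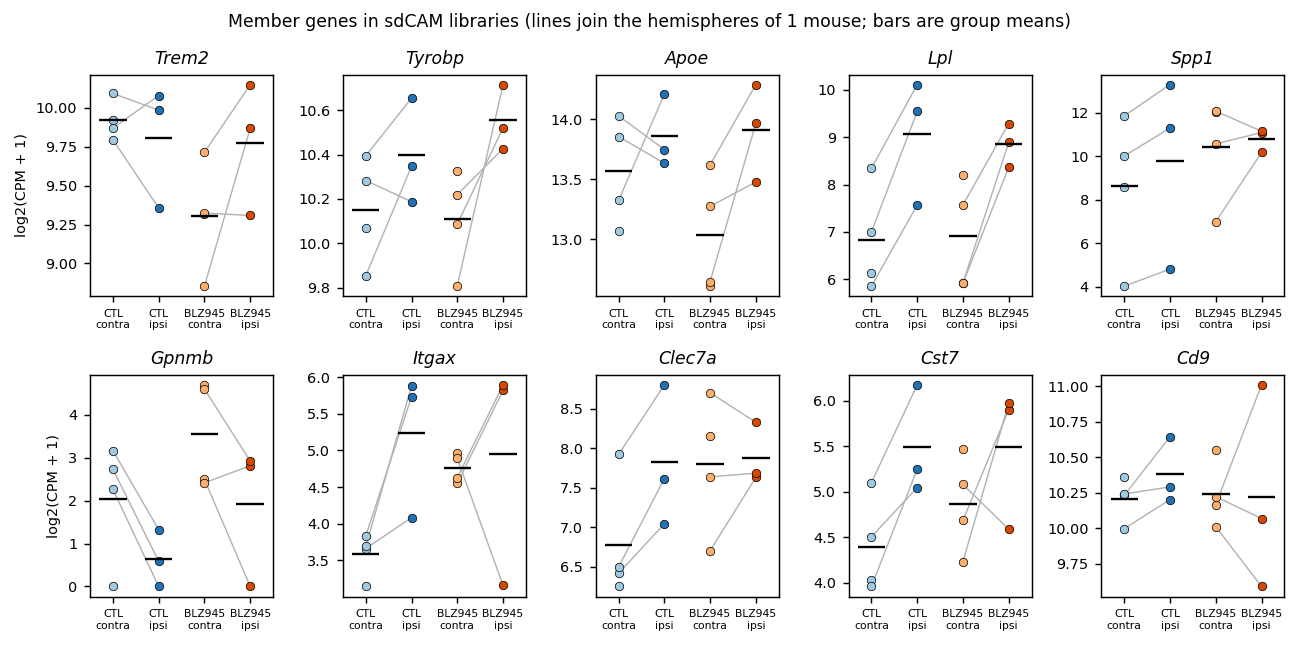
Levels of the 10 members in the 14 sdCAM libraries, as log2(CPM + 1) on the vertical axis, by treatment and hemisphere. Points are libraries, grey lines join the hemispheres of 1 mouse, and bars are group means. *Lpl* rises in 6 of 6 mice, and *Spp1* of A4 stands lowest in both hemispheres.

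The sdCAM calls depended on the genes that set the scale. When library sizes were taken from the summed counts of sdCAM and microglia markers, a scaling added after the values had been seen, the median of all genes moved from -0.16 to -0.91 over both treatments. On that scale *Lpl* was still called higher (log2 fold change 1.37, adjusted p = 0.0345), and *Itgax* was not called (0.57, adjusted p = 0.313). *Trem2* moved with this shift from 0.20 to -0.55 (adjusted p = 0.0223), which is above the median of all genes on either scale. On the marker scale 30.3% of all genes were called.

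The effect of the earlier BLZ945 treatment was tested within each hemisphere. In sdCAMs, 0 of 10 members differed between BLZ945 and CTL mice in either hemisphere, and in tissue 0 of 10 did so as well (edgeR, and 0 of 10 with DESeq2 in each). At an unadjusted p under 0.05 there were 3 members in contralateral and 0 in ipsilateral sdCAMs, 2 in ipsilateral and 1 in contralateral tissue, beside 6.19%, 5.65%, 4.52% and 3.25% of all genes in the same order. With edgeR, 0% of all genes tested were called in each of these 4 comparisons. DESeq2 called 44 genes in contralateral and 128 in ipsilateral sdCAMs, 1 in ipsilateral tissue and 0 in contralateral tissue. The difference between the responses to stroke of the 2 treatments was tested as an interaction. It was called for 0 of 10 members in each assay, also at an unadjusted p under 0.05 and with DESeq2. Of all genes, edgeR called 0% in each assay, and DESeq2 called 48 in sdCAMs and 0 in tissue. The calls made in one treatment only are therefore not shown to differ between the treatments.

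*Itgax* was the member whose BLZ945 and CTL libraries did not overlap in contralateral sdCAMs and in both hemispheres of the tissue. In contralateral sdCAMs, the BLZ945 libraries (22.43 to 30.27 CPM) lay above all CTL libraries (7.837 to 13.26 CPM), a log2 fold change of 1.23 with a 95% confidence interval of 0.23 to 2.24 (adjusted p = 0.759), and 1.45% of all genes tested were higher without overlap there. Monocyte markers separated the same libraries in the same direction (167.1 to 852.6 CPM in BLZ945 and 93.08 to 159.6 in CTL), and their part was not tested. In tissue its BLZ945 libraries lay above the CTL libraries in both hemispheres, with log2 fold changes of 1.24 in contralateral and 1.12 in ipsilateral tissue (95% confidence intervals 0.37 to 2.10 and 0.44 to 1.79, adjusted p = 1 and 0.958). In contralateral tissue this rests on 2 to 6 counts per CTL library and 6 to 11 per BLZ945 library. There A2, C4 and D1 each held 6 counts, so only library size separates them. *Cst7* in ipsilateral and *Tyrobp* in contralateral tissue also had BLZ945 libraries above all CTL libraries. Thus 2 of 10 members did not overlap in ipsilateral tissue, where 1.15% of all genes tested were higher without overlap, and 2 of 10 in contralateral tissue (1.20%).

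*Trem2* was the member with BLZ945 sdCAM libraries below all CTL libraries on the contralateral side. It was 636.7, 838.9, 461.6 and 639.6 CPM in C2, C3, C4 and D1 and 1091, 970.7, 934.8 and 887.3 in A2, A3, A4 and B1 (log2 fold change -0.59, SE 0.224, adjusted p = 0.759), and 1.79% of all genes tested were lower without overlap there. On the same side, choroid plexus markers were 1416 to 37560 CPM in BLZ945 and 24.55 to 9027 in CTL libraries, and microglia markers 4012 to 8358 and 9089 to 12800. With library sizes from sdCAM and microglia markers, the log2 fold change of *Trem2* there changed sign to 0.146 (edgeR, adjusted p = 0.683). On the ipsilateral side *Trem2* was 633.1 to 1135 CPM in BLZ945 and 654.3 to 1081 in CTL sdCAMs (log2 fold change -0.02, 95% confidence interval -0.53 to 0.48). *Clec7a* had a log2 fold change between BLZ945 and CTL of 1.03 in contralateral sdCAMs and 1.71 in ipsilateral tissue. The approximate intervals lay above 0 (0.11 to 1.95 and 0.69 to 2.73), and neither difference was called (adjusted p = 0.759 and 0.958). The intervals of *Spp1* in sdCAMs were the widest of the abundant members, at -1.57 to 3.53 on the contralateral and -4.12 to 1.79 on the ipsilateral side.

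**Figure D4:**
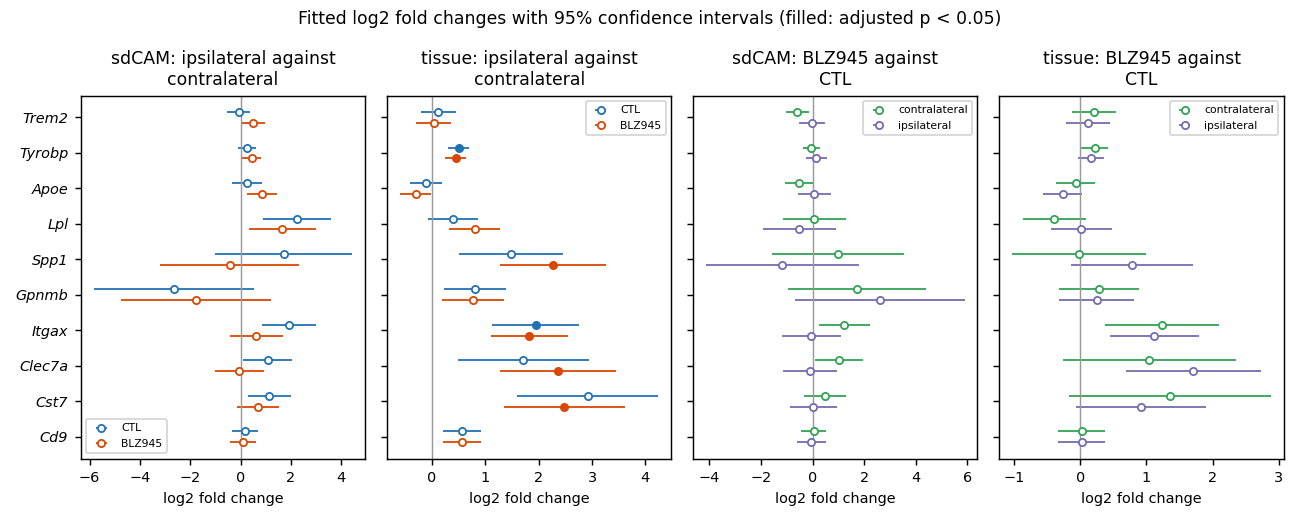
Fitted log2 fold changes of the 10 members with their 95% confidence intervals, from left to right for ipsilateral against contralateral in sdCAMs and in tissue and for BLZ945 against CTL in sdCAMs and in tissue; filled points have an adjusted p under 0.05. Filled points are found for *Tyrobp* and *Itgax* in CTL and for 5 members in BLZ945 tissue, and 0 between the treatments.

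The partners of the members were followed as lists, chosen with earlier results of these data known. Their counts are given on the scale of TMM normalization. In sdCAMs, the rescaling to markers given above lowered the median of all genes by about as much as many of the list genes rose. List counts on that scale are not given. The part of the unequal cell type markers in the sdCAM list results was not tested. In sdCAMs, 10 of 15 genes of TREM2 and Dectin-1 signalling were higher on the stroke side over both treatments and 0 lower, beside 4.98% of all genes called higher. *Vav1*, a guanine nucleotide exchange factor, was 132.8 to 348.2 CPM in contralateral and 436.4 to 546.8 in ipsilateral sdCAMs (log2 fold change 1.03, adjusted p = 0.00132). *Adam10*, a protease that sheds TREM2, and the kinase gene *Lyn* rose by log2 fold changes of 0.75 and 0.84 (adjusted p = 0.00198 and 0.00219). In tissue, 4 of 15 were higher and 0 lower, beside 2.53% of all genes called higher. There *Vav1* was 2.22 to 4.759 CPM in contralateral and 6.721 to 10.55 in ipsilateral libraries, and *Ptpn6*, a phosphatase gene, and *Lyn* rose by 0.89 and 0.59 (adjusted p = 0.000623 and 0.012).

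Of 24 other disease-associated microglia genes, 9 were higher and 0 lower in sdCAMs, and 10 and 0 in tissue. Of all genes, 4.98% were called higher in sdCAMs and 2.53% in tissue. In sdCAMs the cathepsin genes *Ctsb* and *Ctsz* and the lysosomal gene *Cd68* led by adjusted p, with log2 fold changes of 1.00, 0.79 and 0.91. In tissue the chemokine gene *Ccl4* was at or under 0.0936 CPM in every contralateral library and at 1.366 to 3.796 CPM in ipsilateral tissue (adjusted p = 4.89e-06). *Cd68* and *Lgals3*, which encodes galectin-3, rose by log2 fold changes of 1.09 and 2.76 there (adjusted p = 5.19e-05 and 0.000392). Homeostatic microglia genes differed between the assays. In tissue 2 of 11 tested fell and 0 rose (0.517% of all genes fell), *P2ry12*, a purine receptor gene, by 0.70 and *Siglech* by 0.66 on the log2 scale. In sdCAMs 5 of 11 rose and 0 fell, among them the receptor genes *Cx3cr1*, *Csf1r* and *P2ry13* with log2 fold changes of 0.90, 0.89 and 0.78. The summed microglia markers, which share genes with this list, moved the same way in these sdCAM libraries, and their part was not tested.

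Of 20 genes of cholesterol and lipid handling, 3 were higher and 4 lower in ipsilateral sdCAMs, beside 4.98% of all genes called higher and 11.2% lower. The scavenger receptor genes *Msr1* and *Cd36* and the lysosomal lipase gene *Lipa* rose (log2 fold changes 1.54, 1.15 and 0.48, adjusted p = 0.00301, 0.025 and 0.038), and *Pltp*, *Vldlr* and *Apoc1* had the lowest adjusted p among those that fell. In tissue 3 of 20 rose and 0 fell, beside 2.53% of all genes called higher. Those that rose were *Msr1*, the lipid droplet gene *Plin2* and the cholesterol hydroxylase gene *Ch25h*. *Msr1* was 0 to 0.516 CPM in contralateral and 3.714 to 7.292 in ipsilateral tissue (adjusted p = 2.64e-07). *Plin2* was 4.599 to 6.857 and 10.17 to 19.65 CPM (log2 fold change 1.27, adjusted p = 1.83e-05).

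Partners of osteopontin and Gpnmb rose in 5 of 9 cases in sdCAMs and 3 of 9 in tissue, with 0 lower in both. For these and the following lists, 4.98% of all genes were called higher in sdCAMs and 2.53% in tissue. In tissue *Cd44*, a receptor of osteopontin, was 1.045 to 5.786 CPM in contralateral and 7.959 to 35.33 in ipsilateral libraries (log2 fold change 2.56, adjusted p = 6.71e-05), and the integrin genes *Itgb1* and *Itga5* rose by 0.31 and 0.93. In sdCAMs the integrin genes *Itga9*, *Itgav* and *Itgb5* led by adjusted p (log2 fold changes 0.97, 0.65 and 0.66). Of the partners of Itgax, Cst7 and Cd9, 4 of 9 rose in sdCAMs and 3 of 9 in tissue, with 0 lower in both. *Itgb2*, whose chain pairs with that of *Itgax*, rose in sdCAMs by 0.91 and in tissue by 0.86 on the log2 scale (adjusted p = 0.00462 and 0.00904), and *Ctsc*, a cathepsin gene, by 1.02 and 1.09 (0.0029 and 0.000391). Of 10 transcription regulators, 2 rose and 0 fell in each assay, *Spi1*, which encodes PU.1, and *Runx1*. In sdCAMs *Spi1* rose by 0.70 and in tissue by 1.03 on the log2 scale (adjusted p = 0.00722 and 0.000453).

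The genes most like the members over the libraries were ranked by Pearson's r with the mean standardized level of the members, as a description without a test. All 10 members entered the mean in sdCAMs and 9 in tissue, where *Cst7* was left out for its low level. In the 14 sdCAM libraries these were *Coro1a* (r = 0.921), *Ifi30* (0.915), *Cyba* (0.913), *Samsn1* (0.902) and *Itgb2* (0.901). In the 16 tissue libraries they were *Plin2* (r = 0.948), *Slc15a3* (0.944), *Cd53* (0.943), *Ftl1* (0.939) and *Plek* (0.929). Libraries of a table share the contrast of the hemispheres, and both libraries of a mouse enter each r.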

How the data were processed

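RNA of 16 tissue and 16 sdCAM libraries from 8 mice was sequenced, and per the labels and the study's methods the authors demultiplexed (bcl2fastq 2.20), aligned (STAR 2.7.11a) and counted reads on genes (featureCounts 2.0.8). They deposited raw counts without normalization in 2 tables. The genome build of these tables is not given singly in the sources used here, so genes carry no coordinates from them. The members and lists were chosen with earlier results of these data known. Genes with a summed count under 7 (sdCAMs) or 8 (tissue, joint fit) were removed. Groups of treatment and hemisphere were fitted with edgeR 4.0.16 (quasi-likelihood test, TMM, two-sided), without a block, with calls where the p-value after Benjamini-Hochberg adjustment was under 0.05. The fit was tested on simulated data. A floor of 3 counts is 0.253 to 0.389 CPM in an sdCAM and 0.234 to 0.321 in a tissue library, for counting error only. The labels name 1 batch. Replicates carry the names of separate mice. The study's methods for the stroke experiments describe pooling of cells from BLZ945 mice per replicate, and a figure legend gives it for another mouse line. It was taken not to apply to these libraries. The hemispheres of a mouse are paired by the animal (correlation of their deviations 0.0651 to 0.255 in sdCAMs of 6 mice and 0.201 to 0.663 in tissue), and blocked values are given where they change a call. Alternatives were DESeq2 1.42.0, its size factors, other filters, a fold threshold, the block, each mouse left out, A3 tissue exchanged, all 16 sdCAM libraries and, added after the values had been seen, library sizes from markers. Named list genes were those called over both treatments with the lowest adjusted p, up to 3 per list, assay and direction. Of the markers and list genes, only *Fcrls* was not found in the tables. CPM per kilobase used the union of all annotated exons of a gene in GENCODE M21.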

Additional observations from a re-analysis of the deposited data

Results flagged for a closer look

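Each group of 4 libraries was examined for a library whose gap to the next exceeds Dixon's 95% critical value, 60 groups of members in all, of which 2 were flagged, while chance flags about 1 in 20. *Clec7a* in contralateral sdCAMs of CTL mouse B1 was at 241.3 CPM, and the other 3 libraries were between 75.28 and 89.55. *Lpl* in contralateral tissue of CTL mouse A4 was at 48.69 CPM, and the other 3 were between 22.86 and 23.7. Without A4, *Lpl* was called higher in ipsilateral tissue over both treatments (adjusted p = 0.00419, edgeR). No member had all CTL mice moving one way and all BLZ945 mice the other between the hemispheres.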

How the results depend on the processing

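The count of members called between the hemispheres moved in sdCAMs and tissue under several alternatives, and the cause was not tested. In sdCAMs of CTL mice, where 0 were called, DESeq2 called 2 (*Lpl* and *Itgax*). The fit without a filter and the fit with the replicate block called 1 each (*Lpl*). Of all genes, DESeq2 called 1823, the fit without a filter 665 and the block 293, against 510 in the main fit. In BLZ945 mice, where 0 were called, the replicate block gave 1 (*Lpl*), beside 5.19% of all genes. Marker library sizes gave 1, *Cd9*, which turned to -1.03 (adjusted p = 0.044), beside 23.7% of all genes. Over both treatments, where 2 were called, the block gave 1 and all 16 sdCAM libraries gave 0, and marker library sizes turned *Trem2* to -0.55. Leaving out each mouse gave 0 to 1 members in CTL, 0 in BLZ945 and 1 to 3 over both.

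In tissue of CTL mice, where 2 were called, the fit without a filter gave 0 and the threshold of 0.59 gave 1. The replicate block gave 4, beside 1.32% of all genes. In BLZ945 mice, where 5 were called, the block gave 7, beside 4.14% of all genes. With A3 exchanged, 0 members were called in CTL, 0 in BLZ945 (main 5) and 0 over both treatments (main 6), with 1, 8 and 8 at an unadjusted p under 0.05. The exchange with the replicate block gave 0, 2 and 2. Leaving out each mouse gave 0 to 2 in CTL, 0 to 5 in BLZ945 and 4 to 7 over both. Within BLZ945 mice 0 were called without C2 and 0 without D1. Over both treatments, the call of *Clec7a* was lost without B1, that of *Cd9* without A2, B1 or C2, and those of *Tyrobp* and *Cd9* under the threshold of 0.59.

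The comparison of sdCAMs with tissue kept 8 to 10 members called under every alternative. Between the treatments and for the interaction, 0 members were called under every alternative run. Uncalled members changed sign in 73 sdCAM, 46 tissue and 1 joint value. Depth limits *Itgax*, *Clec7a* and *Cst7* in tissue, whose lowest libraries held 2, 3 and 0 counts.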
